A study of Mus musculus with 12 samples.

Results

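SET, the SET-binding protein SETBP1 and the subunits of protein phosphatase 2A (PP2A) were followed at the transcript level as 10 genes: Setbp1, Set, Ppp2ca, Ppp2cb, Ppp2r1a, Ppp2r1b, Ppp2r2a, Ppp2r5a, Ppp2r5c and Ppp2r5e. They were taken by gene symbol from a table of RNA sequencing counts. All 10 were found among the 19910 symbols listed, and all 10 passed the filter on low counts that left 10993 genes for testing. Setbp1 passed it only through the groups that received SETBP1, so counts of genes past a threshold are given for the other 9. The last section also gives counts that include Setbp1, and names them.

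The libraries came from mouse bone marrow cells, described in the labels as leukemia cells, with 3 libraries in each of 4 groups. Every group was bone marrow of female C57BL/6J mice aged 6 to 10 weeks that had received a pair of retroviral vectors, with virus made in the packaging cell line 293T17. The pairs were empty and empty (empty group), SETBP1 (D868N) and empty (SETBP1 group), empty and NRAS (G12D) (NRAS group), and SETBP1 (D868N) and NRAS (G12D) (combined group). Controls were therefore transduced cells too, and the retroviral vectors drive the mutants in whichever cells they enter. The labels number the replicates but do not say that they were separate mice or cultures, so p-values measure only the spread between these libraries.

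PP2A is a serine/threonine phosphatase built from a catalytic C subunit, a scaffold A subunit and 1 of many regulatory B subunits that choose the substrates. SET is a nuclear protein that binds the catalytic subunit and inhibits it, and SETBP1 binds SET. Changes in the stretch of SETBP1 that holds D868 slow its breakdown and recur in myeloid leukemia, where low PP2A activity has been described. NRAS is a small GTPase upstream of the RAF, MEK and ERK kinases, and PP2A removes phosphate from several proteins of that pathway and from AKT and MYC.

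The libraries held 7085894 to 8864919 counts each, with 11835 to 12800 genes detected. Levels are given as CPM, counts relative to library size, after TMM scaling in edgeR, and are called normalised CPM. Nras, the check of the labels, stood at 86.5 ± 5.75 normalised CPM (SD, n = 3) in empty, 88.2 ± 3.78 in SETBP1, 1520 ± 166 in NRAS and 1559 ± 35.8 in combined libraries. SETBP1 replicate 3 stood apart: its correlation with the other libraries of its group was 0.946 and 0.953 (Pearson's r across genes), against 0.984 to 0.991 for all other pairs within groups. It had the most counts, 8864919, and the fewest genes detected, 11835. Its difference from replicates 1 and 2 followed transcript length, with a median log2 value of 0.26 for genes of up to 2000 exonic bases and -0.31 for genes over 6000. The SETBP1 group against empty ran from 0.24 to -0.20 over the same classes, from 0.17 to -0.09 without that library, and NRAS against empty from -0.05 to 0.01. Most results that rest on the SETBP1 group are therefore given with and without SETBP1 replicate 3. Where only the value on all libraries is given, stability to that library is not shown.

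Marker genes of the myeloid lineage were present in every group. The summed normalised CPM of 12 late neutrophil markers was 11413 to 12876 in empty, 5214 to 7469 in SETBP1, 5959 to 7625 in NRAS and 2011 to 2518 in combined libraries. That of 5 early granule genes was 24584 to 27211 in empty, 18208 to 19994 in SETBP1, 9863 to 11478 in NRAS and 5749.5 to 6304 in combined libraries. The 10 monocyte and macrophage markers summed to 4431 to 4902, 5145 to 6940.4, 3709 to 4087 and 3730.2 to 4025 in the same order of groups. The 8 mast cell and basophil markers summed to 2733 to 2842 in empty, 1488 to 2118 in SETBP1, 401 to 689 in NRAS and 157 to 276 in combined libraries. The 12 proliferation genes lay at 3506 to 3561, 3210 to 3373, 3976 to 4008 and 3879 to 3905. The 7 megakaryocyte markers summed to 214 to 256, 290 to 613, 142 to 201 and 243 to 270. SETBP1 replicate 3 had the highest monocyte and megakaryocyte sums of its group, 6940.4 and 613. Its late neutrophil, early granule and proliferation sums, 5214, 18208 and 3210, were the lowest of the group. The 4 hemoglobin genes and Pax5, Cd3e and Cd8a were at 0 in all libraries, but other markers of their lists had low levels. Erythroid, B-lymphoid and T-lymphoid markers summed to 9.51 to 11.1, 19.0 to 21.1 and 4.72 to 6.22 normalised CPM in empty libraries. In combined libraries these sums were 1.48 to 2.56, 7.93 to 9.37 and 5.76 to 8.11. The T-lymphoid sum was 9.38 to 10.7 in NRAS libraries. In bulk RNA, fewer cells of a type and less RNA per cell cannot be told apart, and the part of these shifts in the changes described here was not tested.

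Of the 10 genes, 6 had RefSeq promoter windows (250 bases before to 50 after an annotated start, GRCm38.p6). The windows of Set, Ppp2ca and Ppp2r1a are shown because these genes were higher in both NRAS-containing groups. Set has 2 annotated starts in that table. Each window is given 5′ to 3′ on the gene's strand, and capitals mark a CRE (TGACGTCA), an ETS core (CCGGAA, or TTCCGG on the other strand) or an E-box (CACGTG).
Set first start, chr2:30061746-30062045, plus strand: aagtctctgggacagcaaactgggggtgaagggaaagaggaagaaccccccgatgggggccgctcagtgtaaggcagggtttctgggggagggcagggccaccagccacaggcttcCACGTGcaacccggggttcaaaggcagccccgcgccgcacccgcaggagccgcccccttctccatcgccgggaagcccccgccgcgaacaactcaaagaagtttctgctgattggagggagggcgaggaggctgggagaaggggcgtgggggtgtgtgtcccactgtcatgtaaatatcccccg
Set second start, chr2:30066224-30066523, plus strand: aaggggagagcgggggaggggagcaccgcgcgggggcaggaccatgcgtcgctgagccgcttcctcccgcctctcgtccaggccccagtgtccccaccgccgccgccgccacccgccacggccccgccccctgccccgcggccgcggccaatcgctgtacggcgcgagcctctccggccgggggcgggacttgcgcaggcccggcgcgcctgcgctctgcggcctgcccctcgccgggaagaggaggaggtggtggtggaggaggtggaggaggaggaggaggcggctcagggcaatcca
Ppp2ca, chr11:52098574-52098873, plus strand: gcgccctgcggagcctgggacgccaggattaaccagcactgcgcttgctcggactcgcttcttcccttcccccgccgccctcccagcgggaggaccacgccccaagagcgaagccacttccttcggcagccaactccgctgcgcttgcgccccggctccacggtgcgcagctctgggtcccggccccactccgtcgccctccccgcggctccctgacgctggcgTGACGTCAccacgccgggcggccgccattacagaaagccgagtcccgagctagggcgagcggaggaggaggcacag
Ppp2r1a, chr17:20945204-20945503, plus strand: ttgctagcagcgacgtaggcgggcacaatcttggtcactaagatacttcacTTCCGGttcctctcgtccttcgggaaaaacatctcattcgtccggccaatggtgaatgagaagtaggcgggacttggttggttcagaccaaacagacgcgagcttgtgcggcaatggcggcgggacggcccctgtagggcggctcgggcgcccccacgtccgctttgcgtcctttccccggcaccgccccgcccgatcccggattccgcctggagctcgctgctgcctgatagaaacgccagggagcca
The CRE of Ppp2ca begins at position -26 from the annotated start and is found in 1.79% of all 32851 windows in the table. The ETS core of Ppp2r1a begins at -199 and is in 14.9% of windows, and the E-box at the first start of Set begins at -134 and is in 7.15%. The second start of Set held none of these motifs, but GC boxes (GGGCGG or its complement, in 35.7% of windows) lay at -127 and -69. Both strands were searched, also for AP-1 sites (TGANTCA, in 7.81% of windows), which none of the 8 windows of the 6 genes held. A match is a run of letters, not evidence of binding.

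Setbp1, on chromosome 18 of mm10, was detected only where it had been introduced. It had 0 reads in each empty and each NRAS library, 7, 7 and 5 reads in SETBP1 replicates 1, 2 and 3, and 13, 17 and 11 reads in the combined libraries. Against a floor of 3 counts per library, both in normalised CPM, the level was at least 2.10-fold higher in SETBP1 than in empty and at least 4.63-fold higher in combined than in NRAS libraries. Combined libraries held 1.82 ± 0.348 normalised CPM and SETBP1 libraries 0.783 ± 0.170 (SD, n = 3), without overlap. No test is given for Setbp1, since the groups in which it was introduced decided that it passed the filter. The species and extent of the introduced sequence are not given in the sources used here, so these few reads show only that it was present where the labels place it.

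Set, which encodes the PP2A inhibitor, lies on chromosome 2 (mm10, 30057378 to 30072577, plus strand) and was higher in every library with NRAS than in every library without it. Normalised CPM was 662, 699 and 633 in empty libraries, 815, 795 and 629.6 in SETBP1, 987, 925 and 1036 in NRAS and 1019, 1006 and 1009 in combined libraries. The 6 libraries with NRAS lay from 925 upward, and no library without it exceeded 815. The log2 fold change was 0.56 for NRAS against empty (SE 0.09, edgeR quasi-likelihood test, Benjamini-Hochberg adjusted p 3.04e-04), 0.44 for combined against SETBP1 (SE 0.09, adjusted p 0.00155) and 0.61 for combined against empty (adjusted p 1.15e-04). Without SETBP1 replicate 3 the value for combined against SETBP1 was 0.33 (edgeR adjusted p 2.45e-04).

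For Set, SETBP1 against empty gave 0.17 (SE 0.09, 95% interval -0.03 to 0.36, edgeR adjusted p 0.206). SETBP1 replicates 1 and 2 lay above all empty libraries and replicate 3 below them. Without replicate 3 the difference was 0.28 (SE 0.06) and passed the threshold (adjusted p 0.00567), so the call on Set in this comparison turns on 1 library. Once NRAS was present, adding SETBP1 gave a difference of 0.04 with an interval of -0.15 to 0.23 (combined against NRAS, adjusted p 0.955). Of all 50-base windows in Set transcripts, 29.3% also occur in 13 other annotated genes, so part of its reads may have been shared or lost in counting.

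**Figure D1:**
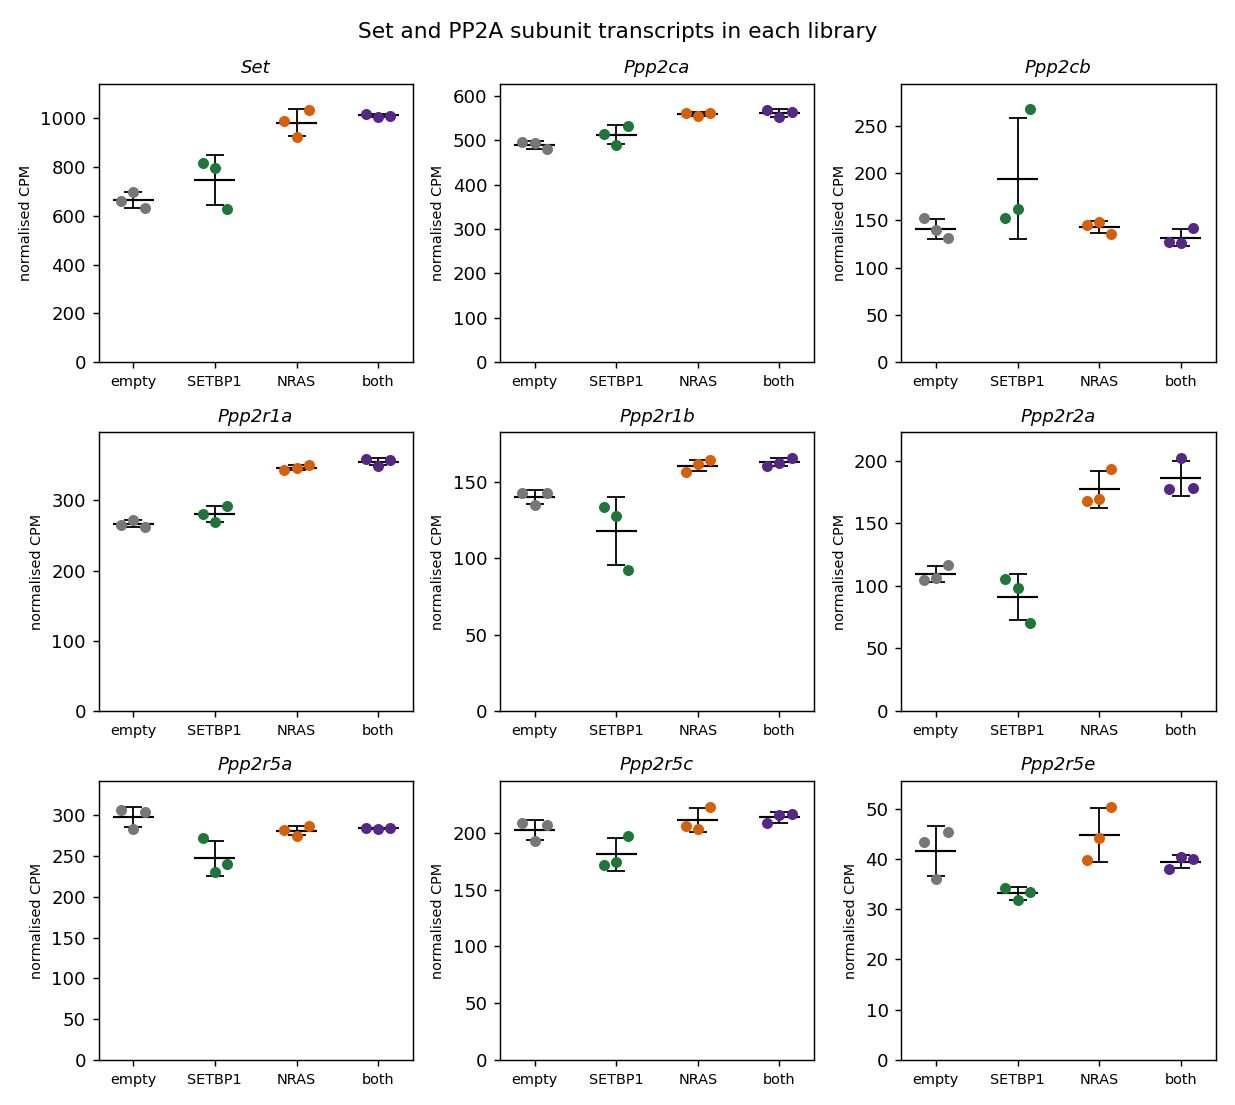
Normalised CPM (vertical axis, from 0) of Set and 8 PP2A subunit genes in each of 12 libraries, grouped as empty, SETBP1, NRAS and both mutants. Points are libraries and bars are the mean and SD of 3. Set, Ppp2ca, Ppp2r1a, Ppp2r1b and Ppp2r2a sit higher in all NRAS-containing libraries than in all others. SETBP1 replicate 3 is the outlying SETBP1 point for Ppp2cb, Ppp2r1b and Ppp2r2a.

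The catalytic subunit is made from 2 genes, Ppp2ca on chromosome 11 (52098681 to 52127778, plus strand) and Ppp2cb on chromosome 8 (33599625 to 33619441, plus strand), whose products are nearly identical proteins. Ppp2ca, the more abundant in counts, read 497, 493 and 479 normalised CPM in empty, 515, 489 and 533 in SETBP1, 561, 555 and 561 in NRAS and 569, 551 and 564 in combined libraries. It rose by a small amount with NRAS, at log2 0.19 for NRAS against empty (SE 0.06, edgeR quasi-likelihood test, adjusted p 0.0219) and 0.20 for combined against empty (adjusted p 0.0147). The NRAS call was lost when any 1 of the 6 compared libraries was left out (adjusted p 0.0542 to 0.0965), and with scaling by library size alone, which brought the value to 0.10 (adjusted p 0.163). Combined against SETBP1 gave 0.13 (interval 0.01 to 0.26, adjusted p 0.0831), and passed the threshold with DESeq2 on all libraries (adjusted p 0.0327) and without SETBP1 replicate 3 (0.16, adjusted p 0.0241). The call for combined against empty was lost without empty replicate 3 (adjusted p 0.0725) or combined replicate 1 (0.0526), and by library size (0.267). Some 41.0% of its 50-base windows occur in other annotated genes too, and none of them in Ppp2cb.

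Ppp2cb was 152, 139.6 and 131 normalised CPM in empty, 153, 162 and 268 in SETBP1, 145, 148 and 136 in NRAS and 128, 126 and 142 in combined libraries. SETBP1 replicate 3 was far above the other 11 libraries, which all lay between 126 and 162. Ppp2cb has the shortest exonic sequence of the 10 genes, 1469 bases. In SETBP1 replicate 3 it was 0.77 higher on the log2 scale than in replicates 1 and 2. Ppp2cb was lower in combined than in SETBP1 libraries by log2 -0.56 (SE 0.16, edgeR adjusted p 0.0145), and by -0.25 without that library (adjusted p 0.0143). It missed the threshold without combined replicate 1 (adjusted p 0.0518) or 2 (0.0556), and with only the groups compared (0.0638). SETBP1 against empty was 0.46 (interval 0.11 to 0.82, adjusted p 0.0694) with the library and 0.16 (adjusted p 0.192) without it. It passed the threshold without SETBP1 replicate 1 or 2 (adjusted p 0.0122 and 0.0408), and with DESeq2 on all libraries (adjusted p 0.0402).

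The scaffold subunit is made from Ppp2r1a on chromosome 17 (20945311 to 20965916, plus strand), the main A subunit in most tissues, and Ppp2r1b on chromosome 9 (50845301 to 50894229, plus strand). Ppp2r1a was 265, 273 and 262 normalised CPM in empty, 281, 269.6 and 291 in SETBP1, 343, 346 and 350.4 in NRAS and 359, 349 and 358 in combined libraries. The libraries with NRAS began well above the highest library without it. Ppp2r1a rose by log2 0.38 for NRAS against empty (SE 0.06, edgeR quasi-likelihood test, adjusted p 2.58e-04), 0.34 for combined against SETBP1 (adjusted p 4.49e-04) and 0.41 for combined against empty (adjusted p 8.10e-05). Without SETBP1 replicate 3 the value for combined against SETBP1 was 0.37. The SETBP1 differences were 0.07 without NRAS and 0.04 with it (intervals -0.05 to 0.20 and -0.09 to 0.16).

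Ppp2r1b was 143, 135 and 143 in empty, 134, 128 and 92.4 in SETBP1, 157, 162 and 164 in NRAS and 160.4, 163 and 166 in combined libraries, in normalised CPM. It rose in combined against SETBP1 libraries by log2 0.47 (SE 0.11, edgeR adjusted p 0.00373), and by 0.32 without SETBP1 replicate 3, the lowest library. The NRAS libraries did not overlap the empty ones, yet the difference of 0.20 missed the threshold (SE 0.11, adjusted p 0.186) and passed it without that SETBP1 replicate, whose spread enters the shared estimate (adjusted p 0.0106), and with only the groups compared (0.0216). Combined against empty gave 0.22 (adjusted p 0.13), and passed under the same 2 settings (adjusted p 0.00468 and 0.00640). SETBP1 against empty gave -0.25 (interval -0.49 to -0.02, adjusted p 0.126), -0.10 without SETBP1 replicate 3 and -0.35 without SETBP1 replicate 1 (adjusted p 0.0300). Ppp2r1b has 6449 exonic bases, and genes over 6000 had a median of -0.20 in that comparison on all libraries. Some 20.4% of its 50-base windows lie in Sik2 as well, an overlapping gene, so the counts of these 2 genes cannot be fully separated.

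Among regulatory subunits, Ppp2r2a had the largest change of the 9 genes with NRAS. It encodes the B55 alpha subunit, which directs PP2A to AKT and to substrates of mitotic exit, and lies on chromosome 14 (67014056 to 67072444, minus strand). Normalised CPM was 104.5, 107 and 116 in empty, 105.3, 97.9 and 70.5 in SETBP1, 168, 169.7 and 194 in NRAS and 177, 202 and 178 in combined libraries. Every library with NRAS was above every library without it. The rise was log2 0.70 for NRAS against empty (SE 0.12, edgeR quasi-likelihood test, adjusted p 7.58e-04), 0.77 for combined against empty (adjusted p 2.43e-04) and 1.03 for combined against SETBP1 (SE 0.13, adjusted p 2.43e-05). Without SETBP1 replicate 3 the last of these was 0.87. SETBP1 against empty gave -0.26 (interval -0.53 to 0.01, adjusted p 0.168), -0.10 without that replicate, and -0.37 without SETBP1 replicate 1 (adjusted p 0.0432).

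The 3 B56 genes, whose products target PP2A to MYC, beta-catenin and centromere proteins among others, differed less. Ppp2r5a (chromosome 1, 191351975 to 191403272, minus strand) was 306, 283 and 304 normalised CPM in empty, 272, 230.0 and 239.9 in SETBP1, 281, 275 and 287 in NRAS and 285, 283 and 284 in combined libraries. All SETBP1 libraries were below all others. It fell by 0.27 on the log2 scale for SETBP1 against empty (SE 0.07, edgeR adjusted p 0.0249), and the value was 0.20 higher in combined than in SETBP1 libraries (adjusted p 0.0367). Without SETBP1 replicate 3 the fall was -0.25 (adjusted p 0.0229), and combined against SETBP1 gave 0.18 (adjusted p 0.0431). Ppp2r5a has 9607 exonic bases. Genes over 6000 had a median of -0.20 in SETBP1 against empty, and -0.09 without SETBP1 replicate 3. The part of length in the fall was not tested. The fall lost its call without empty replicate 1 (adjusted p 0.106), empty replicate 3 (0.107) or SETBP1 replicate 2 (0.0732), and when the 6 libraries were fitted alone (0.162). The combined against SETBP1 call was lost without any 1 empty or combined library, without SETBP1 replicate 2 or without NRAS replicate 3 (adjusted p 0.0571 to 0.162). It was also lost with library size scaling, at 0.12 (adjusted p 0.230), and with only the groups compared in the fit (adjusted p 0.160). Of the 50-base windows in Ppp2r5a transcripts, 20.6% also occur in 73 other annotated genes.

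Ppp2r5c (chromosome 12, 110447120 to 110583062, plus strand) was 208, 193 and 207 normalised CPM in empty, 171, 174 and 198 in SETBP1, 206, 204 and 223 in NRAS and 208, 216 and 217 in combined libraries. It was higher in combined than in SETBP1 libraries by log2 0.24 (SE 0.07, edgeR adjusted p 0.0195), without overlap, and by 0.31 without SETBP1 replicate 3. That call was lost without SETBP1 replicate 1 or 2 or combined replicate 2 or 3 (adjusted p 0.0555 to 0.0764), with library size scaling (0.0550) and with only the groups compared (0.0995). For SETBP1 against empty it gave -0.16 (adjusted p 0.145), and -0.23 without SETBP1 replicate 3, which passed the threshold (adjusted p 0.0263), as it did with library size scaling (-0.21, adjusted p 0.0452). With 8286 exonic bases Ppp2r5c is in the same length class as Ppp2r5a.

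Ppp2r5e, on the same chromosome (75450881 to 75596245, minus strand), was the lowest: 43.5, 36.1 and 45.3 normalised CPM in empty, 34.3, 31.8 and 33.5 in SETBP1, 39.9, 44.1 and 50.5 in NRAS and 38.0, 40.4 and 40.0 in combined libraries. The SETBP1 libraries were the lowest group, without overlap with empty, but no comparison passed the threshold. SETBP1 against empty gave -0.33 (interval -0.58 to -0.07, edgeR adjusted p 0.0743), and the mean of the SETBP1 differences with and without NRAS was -0.25 (SE 0.08, adjusted p 0.0568). The latter passed without SETBP1 replicate 1, SETBP1 replicate 3 or empty replicate 2 (adjusted p 0.0337 to 0.0451), with library size scaling (0.0389) and with DESeq2 (0.0424).

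Of the 9 genes, 4 were higher and 0 lower in NRAS than in empty libraries, where 17.0% of all genes tested were higher and 15.5% lower. Their median log2 fold change was 0.19, and that of all genes tested was -0.01. In combined against SETBP1 libraries 6 were higher and 1, Ppp2cb, lower, beside 20.9% and 21.5% of all genes, with medians of 0.25 and -0.00456. Combined against empty called the same 4 genes higher as NRAS against empty, beside 20.8% of all genes higher, 19.8% lower and 40.6% either way, and the 2 comparisons share the empty libraries. Groups did not overlap for 5 of 9 genes in NRAS against empty (56.3% of all genes), 9 of 9 in combined against SETBP1 (48.8%) and 5 of 9 in combined against empty (61.2%). Without SETBP1 replicate 3 more genes were called in all of these comparisons: 47.0% of all genes for NRAS against empty, up from 32.5%, and 46.5% for combined against SETBP1, up from 42.4%.

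For SETBP1 against empty 1 of the 9, Ppp2r5a, passed the threshold and was lower, beside 6.55% of all genes lower, 8.31% higher and 14.9% either way. The number was 3 of 9 without SETBP1 replicate 3, with Set higher and Ppp2r5a and Ppp2r5c lower, beside 15.3% of all genes, and DESeq2 on all libraries called 2, Ppp2cb and Ppp2r5a. In edgeR 5 of 9 had an unadjusted p under 0.05, as did 3632 of all 10993 genes. The groups did not overlap for 4 of 9 genes (Ppp2cb, Ppp2r1b, Ppp2r5a and Ppp2r5e), beside 33.2% of all genes. For combined against NRAS 0 of 9 passed with edgeR, DESeq2 or limma-voom, beside 0.528% of all genes higher, 1.38% lower and 1.91% either way with edgeR. Also 0 of the 9 had an unadjusted p under 0.05, beside 1283 of all 10993 genes, and their log2 values ran from -0.18 to 0.07. No gene of the 9 had groups without overlap, beside 25.2% of all genes. The difference between the SETBP1 effects with and without NRAS was tested directly. None of the 9 passed with edgeR, DESeq2 or limma-voom, beside 0.0455% of all genes (0.00910% higher and 0.0364% lower), although Ppp2r5a (0.28, unadjusted p 0.0139, edgeR adjusted p 0.305) and Ppp2cb (-0.58, unadjusted p 0.0256, adjusted p 0.343) were under 0.05 before adjustment. With the SETBP1 effect averaged over NRAS, 0 of 9 passed with edgeR or limma-voom and 1, Ppp2r5e, with DESeq2, beside 14.0% of all genes with edgeR (7.21% higher, 6.80% lower). In edgeR 2 of 9 had an unadjusted p under 0.05, and Set (0.16, adjusted p 0.0109) and Ppp2r5e (-0.26, adjusted p 0.0337) passed without SETBP1 replicate 3. Ppp2r5a passed without SETBP1 replicate 1 (-0.16, adjusted p 0.0213).

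**Figure D2:**
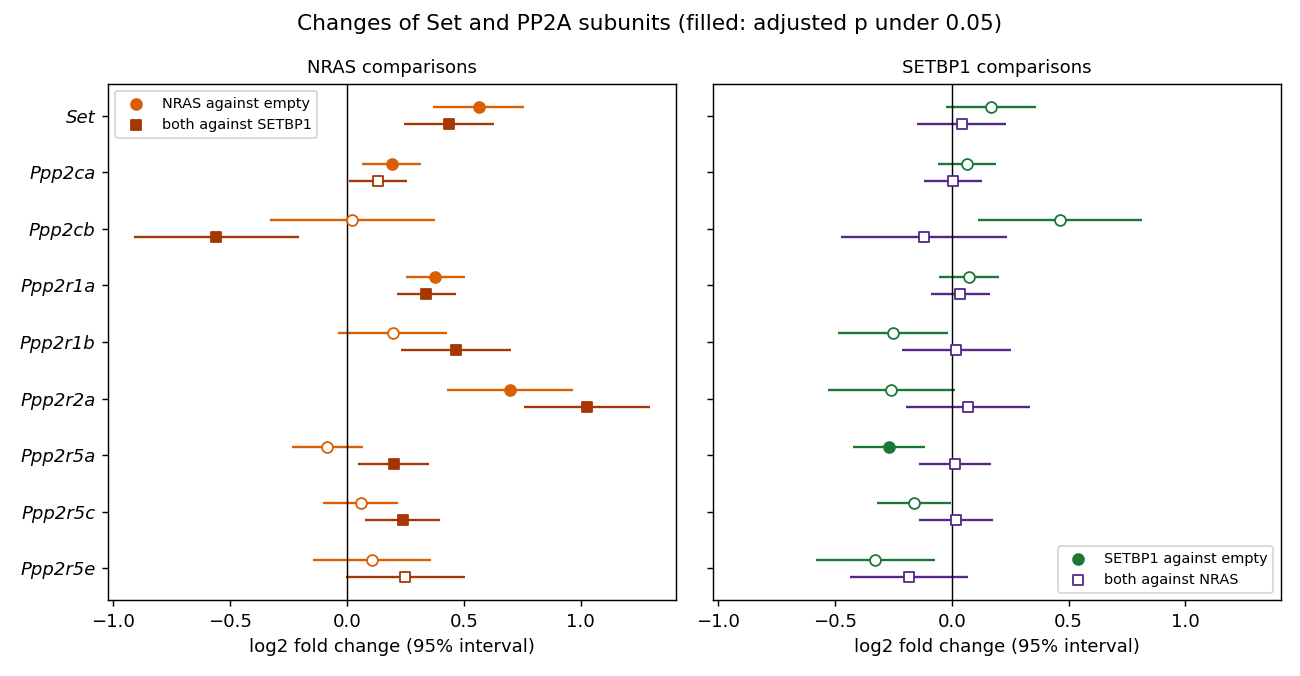
Log2 fold change (horizontal axis) with its 95% interval for Set and 8 PP2A subunit genes, in NRAS comparisons on the left and SETBP1 comparisons on the right. Circles are comparisons with empty, squares those with a mutant already present, and filled symbols have an adjusted p under 0.05. Set, Ppp2r1a and Ppp2r2a are filled and positive in both NRAS comparisons, and Ppp2r5a is the only filled symbol on the right.

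Ratios of counts within a library need no scaling between libraries and were tested by exact permutation within strata of the other mutant. The trend with transcript length in the SETBP1 group does not cancel in them. Ppp2ca has 7490 exonic bases and Ppp2cb 1469, and Ppp2r1a has 3411 and Ppp2r1b 6449. The part of length in the ratio differences was not tested. The ratio of Set to the sum of Ppp2ca and Ppp2cb was 1.05 ± 0.0449 in empty, 1.08 ± 0.251 in SETBP1, 1.40 ± 0.0855 in NRAS and 1.46 ± 0.0289 in combined libraries (SD, n = 3). The 6 NRAS-containing libraries were all above the other 6. The NRAS difference was 0.44 on the log2 scale (two-sided exact permutation test, p 0.005, the smallest that 400 arrangements allow, adjusted p 0.015 over 6 ratio tests). Without SETBP1 replicate 3 this difference was 0.33 (exact permutation test, adjusted p 0.015). The SETBP1 difference was 0.03 (exact p 0.85) with SETBP1 replicate 3, which had a ratio of 0.786, and 0.14 without it (exact p 0.03, adjusted p 0.045).

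The ratio of Ppp2ca to Ppp2cb was 3.48 ± 0.202 in empty, 2.79 ± 0.717 in SETBP1, 3.91 ± 0.192 in NRAS and 4.27 ± 0.271 in combined libraries (SD, n = 3). It was higher with NRAS by log2 0.41 (exact permutation p 0.005, adjusted p 0.015), and by 0.29 without SETBP1 replicate 3 (adjusted p 0.015). The size differed between strata, at 0.17 without SETBP1 and 0.65 with it, and neither stratum of 3 against 3 can go below p 0.1. The 0.65 rests in part on SETBP1 replicate 3, which had a ratio of 1.99, against 3.37 and 3.02 in replicates 1 and 2. The SETBP1 difference in this ratio was -0.11 (exact p 0.585).

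The ratio of the scaffold genes Ppp2r1a to Ppp2r1b was 1.90 ± 0.0988 in empty, 2.46 ± 0.604 in SETBP1, 2.15 ± 0.0306 in NRAS and 2.18 ± 0.0518 in combined libraries (SD, n = 3). All libraries with a mutant lay above all empty libraries. The SETBP1 difference of log2 0.18 had an exact permutation p of 0.025 and an adjusted p of 0.05, not under the threshold, and was 0.08 without SETBP1 replicate 3 (adjusted p 0.09). Over all libraries left out in turn the adjusted p ran from 0.04 (without NRAS replicate 1 or combined replicate 2) to 0.51, with 0.48, 0.35 and 0.51 without empty replicates 1, 2 and 3. The NRAS difference was 0.02 (exact p 0.95), and 0.11 without that replicate (adjusted p 0.02).

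**Figure D3:**
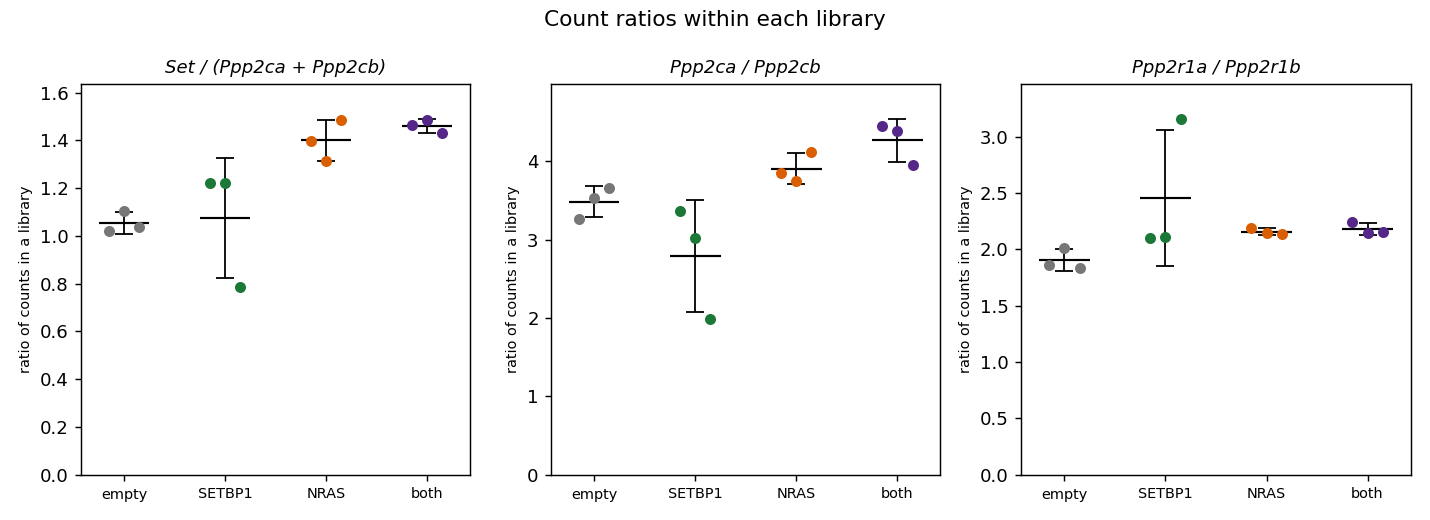
Ratio of counts within each library (vertical axis, from 0) for Set to the sum of the catalytic genes, Ppp2ca to Ppp2cb and Ppp2r1a to Ppp2r1b, by group. Points are libraries and bars are the mean and SD of 3. SETBP1 replicate 3 has the lowest of the 12 values in the first and second panels and the highest in the third.

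Levels of different genes can be compared only per length. In empty libraries, per kilobase of merged exons, Set was highest at 163 ± 8.03 normalised CPM per kilobase (SD, n = 3). It was followed by Ppp2cb at 95.9 ± 7.26, Ppp2r1a at 78.2 ± 1.55 and Ppp2ca at 65.4 ± 1.21, and these 4 differed by more than their SDs. Ppp2r5a stood at 31.0 ± 1.32, Ppp2r5c at 24.5 ± 1.06, Ppp2r1b at 21.8 ± 0.689 and Ppp2r2a at 20.3 ± 1.17, and the last pair differed by less than the sum of their SDs. Ppp2r5e was lowest at 7.79 ± 0.919. By the length of the transcript with the longest coding sequence the order in between changed. Ppp2r1a was then at 110.7, Ppp2r5c at 109.8, Ppp2r5a at 96.5, Ppp2cb at 95.9 and Ppp2ca at 68.9. Set stayed highest at 235 and Ppp2r5e lowest at 8.65.

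Taking the regulatory subunits together per kilobase, Ppp2r2a made up 12.1% ± 0.671 of their summed level in empty, 11.2% ± 2.15 in SETBP1, 17.0% ± 0.892 in NRAS and 17.5% ± 0.994 in combined libraries (SD, n = 3). Ppp2r5a made up 18.5% ± 0.225 in empty, 17.0% ± 0.903 in SETBP1 and 15.1% ± 0.193 in NRAS libraries. With transcript lengths by the longest coding sequence the Ppp2r2a shares were 7.05%, 6.54%, 10.2% and 10.5%.

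**Figure D4:**
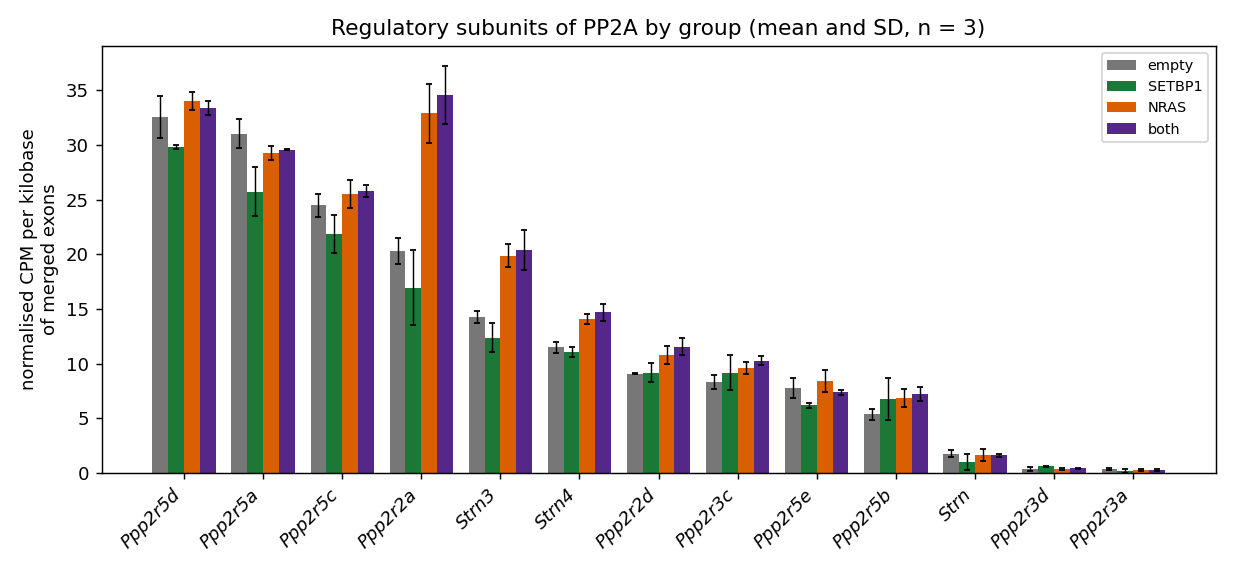
Normalised CPM per kilobase of merged exons (vertical axis, from 0) for 13 regulatory subunit genes of PP2A in the 4 groups. Bars are means and whiskers SDs of 3 libraries. Ppp2r2a rises from 20.3 in empty to 32.9 in NRAS and 34.5 in combined libraries, while Ppp2r5a and Ppp2r5c differ less between groups.

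Of 6 other regulatory B subunits tested with edgeR, 0 passed the threshold in SETBP1 against empty and 0 in NRAS against empty, beside 14.9% and 32.5% of all genes, with 0 and 1 at an unadjusted p under 0.05. Ppp2r2d, another B55 gene, was the 1 of 6 called in combined libraries, higher in combined libraries by log2 0.33 against SETBP1 and 0.34 against empty (edgeR adjusted p 0.0161 and 0.0129, beside 42.4% and 40.6% of all genes). Without SETBP1 replicate 3 the numbers higher were 1 for NRAS against empty (Ppp2r2d at 0.25, adjusted p 0.0234), 2 for combined against SETBP1 (Ppp2r3c added) and 3 for combined against empty (Ppp2r3c and Ppp2r5b added). The shares of all genes called either way were then 47.0%, 46.5% and 53.7%. The striatins are scaffolding B subunits that join PP2A to kinases. Of 9 genes of that complex, 3 were higher and 0 lower in NRAS than in empty libraries: Mob4 at 0.48, Strn3 at 0.48 and Strn4 at 0.29, beside 17.0% of all genes higher and 15.5% lower. There were 5 higher without SETBP1 replicate 3, beside 47.0% of all genes either way. Combined against SETBP1 called 5 of 9 higher and 0 lower (20.9% and 21.5% of all genes), led by Strn3 at 0.72 (0.64 without SETBP1 replicate 3), with 5 again without that library (46.5% of all genes either way). For SETBP1 against empty 0 of 9 passed in edgeR, with and without that library, beside 14.9% and 15.3% of all genes. On all libraries 2 had an unadjusted p under 0.05.

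Among 4 genes of PP2A assembly and methylation, Igbp1, which binds free catalytic subunit, was higher in SETBP1 than in empty libraries by log2 0.52 (edgeR adjusted p 0.0382) and lower in combined than in SETBP1 libraries at -0.65 (adjusted p 0.00438). Both calls held without SETBP1 replicate 3, at 0.48 (adjusted p 0.0394) and -0.60 (adjusted p 0.00327). Lcmt1, the methyltransferase of the catalytic subunit, was lower in combined than in SETBP1 libraries, at -0.49. Ppme1, the methylesterase that opposes it, was 0.36 higher with NRAS than with empty vectors (adjusted p 0.0495), as was Tiprl, at 0.25.

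Of 6 PP2A inhibitors other than Set, 0 passed in SETBP1 against empty and 0 in NRAS against empty with edgeR. The shares of all genes were 14.9% and 32.5%, and 1 and 2 of the 6 had an unadjusted p under 0.05. Ensa, whose phosphorylated product inhibits B55 complexes, fell by 0.53 and Fam122a, which also acts on B55 complexes, fell by 0.47 on the log2 scale in combined against SETBP1 libraries (edgeR adjusted p 0.0139 and 0.0215). Without SETBP1 replicate 3 these values were -0.25 and -0.37, and for NRAS against empty 1 gene was higher and 2 lower, Ensa at -0.33 and Fam122a at -0.34. For NRAS against empty 47.0% of all genes then passed either way.

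Set belongs to a complex with nucleases and to a wider family of histone chaperones. Of 11 such genes tested, 5 were higher and 0 lower in NRAS than in empty libraries, among them Npm1 at log2 0.70, Nap1l1 at 0.54, Nap1l4 at 0.42 and Nme1 at 0.32 (edgeR adjusted p from 1.36e-05 to 0.0152), beside 17.0% and 15.5% of all genes. Leaving out SETBP1 replicate 3 gave 6 higher and 2 lower (Hmgb2 at -0.21 and Trex1 at -0.52), beside 47.0% of all genes either way. In SETBP1 against empty 3 were higher and 0 lower, beside 8.31% and 6.55% of all genes: Apex1 at 0.55, Nme1 at 0.42 and Npm1 at 0.37. Without SETBP1 replicate 3 there were 4 higher, beside 15.3% of all genes either way, and these 3 had values of 0.47, 0.32 and 0.45. Apex1 and Nme1 encode partners of SET in that complex, and Trex1, another, was lower in combined than in SETBP1 libraries at -1.20 (adjusted p 2.63e-04), or -0.97 without the replicate.

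Related phosphatases did not share one direction in SETBP1 against empty. Of 9 catalytic subunit genes, Ppp5c was higher and Ppp1cb and Ppp6c were lower in SETBP1 than in empty libraries, at log2 0.39, -0.58 and -0.35 (edgeR adjusted p 0.0151, 0.0384 and 0.0146), beside 8.31% of all genes higher and 6.55% lower. The Ppp1cb value was -0.34 without SETBP1 replicate 3, and 1 gene was then higher and 3 lower, beside 15.3% of all genes either way. NRAS against empty called 1 of 9, Ppp5c at 0.50, beside 32.5% of all genes, and 3 without that library (47.0% of all genes), when Ppm1a was also higher and Ppp1cb lower (0.26 and -0.33). Combined against SETBP1 called 4 of 9 higher and 0 lower (20.9% and 21.5% of all genes), and 4 and 0 again without that library (46.5% either way). Combined against empty called 3 higher and 2 lower, beside 20.8% and 19.8% of all genes. Of 16 kinases and substrates of the AKT, MYC and ERK pathways, 2 were higher and 2 lower in SETBP1 than in empty libraries, with and without SETBP1 replicate 3 and beside 8.31% and 6.55% of all genes, among them Myc at 0.35 (adjusted p 0.0109) and Akt2 at -0.47 (adjusted p 0.0239). NRAS against empty called 3 higher and 3 lower (17.0% and 15.5% of all genes), or 4 and 3 without that library (47.0% of all genes either way). Among those called on all libraries were Mapk3, which encodes ERK1, at -0.61 and Map2k1, which encodes MEK1, at 0.47. For combined against NRAS 0 of 16 passed in edgeR, beside 1.91% of all genes. Of the 16, 2 had an unadjusted p under 0.05, beside 1283 of all 10993 genes. Without SETBP1 replicate 3, 1 of 16, Akt2, was lower (-0.31, edgeR adjusted p 0.0486), beside 7.52% of all genes either way.

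The genes whose profile over the 12 libraries was most like each member's were found among 9073 tested genes by Pearson's r of log2 CPM. The libraries share the groups, and the values are descriptions. Set was most like Ak6 (0.980), Calcrl (0.979) and Abcb1b (0.977). Ppp2r1a was most like Spp1 (0.997) and Ppp2r2a most like Mmd (0.993). Ppp2ca was most like Orc6 (0.982) and Ppp2r1b most like Prkaa1 (0.991). For Ppp2cb, Ppp2r5a, Ppp2r5c and Ppp2r5e the nearest genes were Gnb2 (0.957), Dpp8 (0.952), Pald1 (0.932) and Hgf (0.934).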

How the data were processed

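RNA was extracted as total RNA and made into libraries with a SMART-Seq kit for low input, per the labels' protocols. The values are raw read counts for each gene in the 12 libraries, as deposited by the authors in a single table. STAR, DESeq2 and mm10 are named in the submitters' processing notes. The counting tool, annotation and strand setting are not given in the sources used here, so overlapping genes and near-identical copies may share reads.

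From the counts, edgeR 4.0.16 (R 4.3.3) was run with scaling by TMM (trimmed mean of M-values), filterByExpr (minimum count 10, minimum total 15) and a quasi-likelihood F test on 4 group means over all 12 libraries. All tests were two-sided. Benjamini-Hochberg adjustment covered the 10993 genes tested, and the threshold was an adjusted p under 0.05. The tested genes held 99.9% of the counts, and 5080 of the listed genes had none. Intervals are 95% and unadjusted for the number of genes. Ratios were tested by exact permutation. The steps were tested on simulated data. At a log2 change of 0.5 they recovered 30.9% of changed genes for SETBP1 against empty and 5% for the difference between SETBP1 effects. At a log2 change of 1 they recovered 70.3% and 60.6%, and false calls were 7.09% and 4.31% of calls. A count of 0 past the threshold in these comparisons therefore does not show that changes of such sizes are absent.

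Levels per kilobase use GENCODE M21 gene models (mm10). Same-numbered libraries did not deviate together (18 pairs, r -0.127 to 0.124), so no replicate block was used. The 10 genes, the lists and the marker sets were chosen with earlier results of these data known. Named genes of other lists are up to 4 per list and comparison, those past the threshold with the largest change; genes most alike are the nearest by correlation among genes with a mean count of at least 50. Ptpa and Cip2a were not analysed here. Alternatives were other scalings (DESeq2 size factors, library size), other tests (DESeq2 1.42.0, limma-voom with limma 3.58.1), other filters, only the groups compared, a replicate block, each library left out, and other transcript lengths. The last, and the lists without SETBP1 replicate 3, were chosen after seeing the data.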

Additional observations from a re-analysis of the deposited data

How the results depend on the processing

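Without Setbp1, counts past the threshold in the order of comparisons given next were 1, 4, 0, 7, 4, 0 and 0. The counts that follow include Setbp1, whose outcome the filter fixed and which alone made the 1 for combined against NRAS and the 1 for the averaged effect. They were 2 for SETBP1 against empty, 4 for NRAS against empty, 1 for combined against NRAS, 7 for combined against SETBP1, 5 for combined against empty, 0 for the difference between SETBP1 effects and 1 for the averaged SETBP1 effect. A replicate block on the numbers gave the same 7 counts, 2, 4, 1, 7, 5, 0 and 1. With a mean count of at least 10, Setbp1 was not tested and the counts were 1 for SETBP1 against empty, 0 for combined against NRAS and 0 for the averaged effect. With only the groups compared in the fit there were 0 for SETBP1 against empty and 4 for combined against SETBP1. The averaged effect gave 2 with library size scaling and 2 with DESeq2, in each case Setbp1 and Ppp2r5e. Leaving out 1 library at a time gave, with Setbp1 not set aside, 1 to 5 for SETBP1 against empty, 4 to 8 for combined against SETBP1 and 1 to 3 for the averaged effect. For the ratios, the SETBP1 difference in Set to catalytic genes ran from -0.0216 to 0.14, and in Ppp2r1a to Ppp2r1b from 0.0826 to 0.23. The NRAS difference in Ppp2r1a to Ppp2r1b ran from -0.0316 to 0.11 in those fits, and was -0.15 in the stratum with SETBP1. Within strata, which cannot pass the threshold, the NRAS difference was 0.41 and 0.47 for Set to catalytic genes and 0.17 and 0.65 for Ppp2ca to Ppp2cb, and the SETBP1 difference in the latter with NRAS was 0.13. Library size scaling moved the median of all genes to -0.10 for NRAS against empty and -0.13 for combined against empty, and turned 8 small uncalled values negative: Ppp2r5c (-0.0349) and Ppp2cb (-0.0704) for NRAS against empty, Ppp2r5a (-0.0146), Ppp2ca (-0.0235), Ppp2r5c (-0.0118) and Ppp2r1b (-0.0100) for combined against NRAS, Ppp2r5c (-0.0467) for combined against empty and Ppp2ca (-0.00218) for the averaged effect. Leaving out a library did so for Ppp2cb in NRAS against empty (-0.0352 to 0.0768) and, in combined against NRAS, for Ppp2r5a (-0.000775 to 0.0307), Ppp2ca (-0.00385 to 0.0186), Ppp2r5c (-0.00698 to 0.0611) and Set (-0.000257 to 0.0828). Of called changes of single genes, 120 values were again past the threshold and 8 were not, and 167 and 25 when a library was left out. The cause of these shifts was not tested.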
